A study of Mus musculus with 4 samples.

Results

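Laminins, nidogens, perlecan, agrin and netrin-4 are the glycoproteins and proteoglycans that build basement membranes beside type IV collagen. The 10 genes described here were Lama1, Lama5, Lamb1, Lamb2, Lamc1, Nid1, Nid2, Hspg2, Agrn and Ntn4, taken by their symbols. A probe set was counted for a gene where the platform annotation gave it that symbol alone, which yielded 21 of the 45037 probe sets that were not controls and 10 of 18193 named genes. Total RNA of mouse mesangial cells, the contractile matrix-producing cells between glomerular capillaries, had been hybridised to 4 one-colour oligonucleotide arrays. On 2 arrays the cells had received transforming growth factor beta 1 (TGF-beta1, written TGFBeta1 in the labels), a cytokine that drives matrix build-up in the glomerulus, and on 2 they had been kept in low glucose. The labels give no dose, duration, glucose level, strain or passage, nor in which glucose the TGF-beta1 cells were kept, so TGF-beta1 and any difference in glucose cannot be told apart. Whether arrays of 1 treatment stand for different cultures is not said either, and the p-values then measure an array-to-array spread that may be purely technical.

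Laminins are cross-shaped trimers of an alpha, a beta and a gamma chain. The trimers join into a sheet through the short arms of the 3 chains, and nidogens link that sheet to type IV collagen by binding the gamma 1 chain. Perlecan and agrin carry heparan sulfate chains and tie the sheet to receptors on the cell, and netrin-4 binds the gamma 1 short arm and loosens the laminin sheet. In the glomerulus, laminin with the alpha 5, beta 2 and gamma 1 chains is the form of the mature filtration barrier, while mesangial matrix holds the beta 1 chain as well.

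Each array resembled 1 array of the other treatment more than that of its own, and no label names a batch that accounts for it. TGF-beta1 replicate 2 and low glucose replicate 1 formed array pair 1, and TGF-beta1 replicate 1 and low glucose replicate 2 formed array pair 2. The pairing was taken from 18 probe sets for hybridisation spike-ins, transcripts added to each sample, which differed by 0.0449 (pair 1) and 0.0847 (pair 2) on average on the log2 scale inside a pair and by 0.855 or more for a TGF-beta1 and a low glucose array of different pairs. Across the 27022 probe sets kept above a brightness filter, the arrays of a pair correlated at r = 0.990 in both pairs, while arrays of the same treatment correlated at 0.956 (across probe sets, which share their array). The ratio of the 3' to the 5' probe set of beta-actin was 1.32 and 1.18 on the TGF-beta1 arrays (replicates 1 and 2), against 1.18 and 1.51 on the low glucose arrays. It was thus higher in array pair 2, as was the intensity of the middle 18S rRNA probe set, at 263 and 110, against 89.1 and 319. The same ratio for Gapdh was not, at 0.948 and 1 with TGF-beta1, against 0.981 and 0.963 in low glucose. Genes of the TGF-beta response that were set as a check of the label (Ccn2, Smad7, Pmepa1, Skil and Fn1) had 10 kept probe sets, and all 10 were higher with TGF-beta1, with a median log2 difference of 0.72. Of 11 mesangial markers 8 had a kept probe set, and Gata3 and Thy1 were below the filter. Marker sums took the brightest probe set of each gene, kept or not. For the mesangial list they were 6476 and 7420 with TGF-beta1, against 6033 and 5197 in low glucose. The mesangial markers Pdgfrb (87.2 and 118 with TGF-beta1, against 99.3 and 88.3) and Itga8 (76.0 and 66.4, against 65.2 and 65.5) were dim. Most of the mesangial sum came from Vim, at 5298 and 6239 with TGF-beta1, against 5106 and 4346 in low glucose. Tagln (489 and 405, against 207 and 239) and Acta2 (157 and 145, against 109 and 109) were also higher on both TGF-beta1 arrays. Des and Myl9 had log2 differences of -0.10 and -0.07. Of 11 tubule and epithelial markers 8 had a kept probe set. The summed intensity of all 11 (1 probe set per gene) was 8381 and 8377 with TGF-beta1, against 8852 and 7954 in low glucose. Single markers of that list moved with the treatment in both directions. Lower were Aqp1 at 1120 and 1376, against 2301 and 1723, Cdh16 at 1682 and 1495, against 2014 and 1919, and Lrp2 at 375 and 379, against 494 and 454. Higher were Krt18 at 4118 and 3747, against 2602 and 2796, and Krt8 at 115 and 125, against 83.1 and 71.9. Pax8, at 649 and 681, against 810 and 667, overlapped. Cdh16, Pax8 and Lrp2 were brighter than Pdgfrb and Itga8, but other markers of the tubule and epithelial list were not. Umod was dim, at 71.9 and 92.6 with TGF-beta1, against 97.5 and 83.7 in low glucose, and Cdh1, Slc34a1 and Slc12a1 were below the filter. With TGF-beta1 first, the summed podocyte markers were at 545 and 778 against 738 and 580. The endothelial ones were at 335 and 472 against 445 and 356. The immune ones were at 1243 and 1575 against 1919 and 1558, mostly from Csf1r, at 952 and 1269 against 1658 and 1274. Wt1, Cdh5, Pecam1, Tek, Tie1, Emcn and Ptprc were below the filter. Kept were Nphs1, Podxl and Synpo (podocyte), Ehd3 and Kdr (endothelial) and Csf1r, Cd68, Adgre1 and Itgam (immune). The part of these other cell types in the results was not tested, and in bulk RNA fewer cells of a type and less RNA per cell cannot be told apart.

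Among the members, Ntn4 and Nid2 were lower with TGF-beta1 on both of its arrays, Lamb2 was slightly lower, and no laminin, perlecan or agrin probe set was called higher. Differences are TGF-beta1 minus low glucose on the log2 scale after adding a pseudocount of 46.88 to each intensity and quantile normalisation, which understates the change of dim genes. The limma fit without a block called 0 of the 27022 probe sets (0%) at an adjusted p under 0.05 and 0 members, and 443 probe sets, 2 of them members, had an unadjusted p under 0.05. Once array pairs entered as a block, limma called 4 of the 15 kept member probe sets lower, against 8.92% of all kept probe sets, and 0 higher, against 6.94%. The words rose and fell are used below only for calls of this blocked limma fit, whose standard errors follow ±. That fit has 1 residual degree of freedom and takes each probe set's spread from others of its brightness, and with the prior degrees of freedom of the fit without a block (2.68) it called 0 probe sets, with 3915 at an unadjusted p under 0.05. On the normalised scale both TGF-beta1 arrays lay below both low glucose arrays for 3 of the 15 member probe sets (10.2% of all kept) and above both for 1 (9.54% of all kept). The median difference over the 15 was 0.00, as it was over all kept probe sets. Of the 21 member probe sets 6 lay below the filter, which took the mean over all 4 arrays, and among them were all 3 of Nid1.

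**Figure D1:**
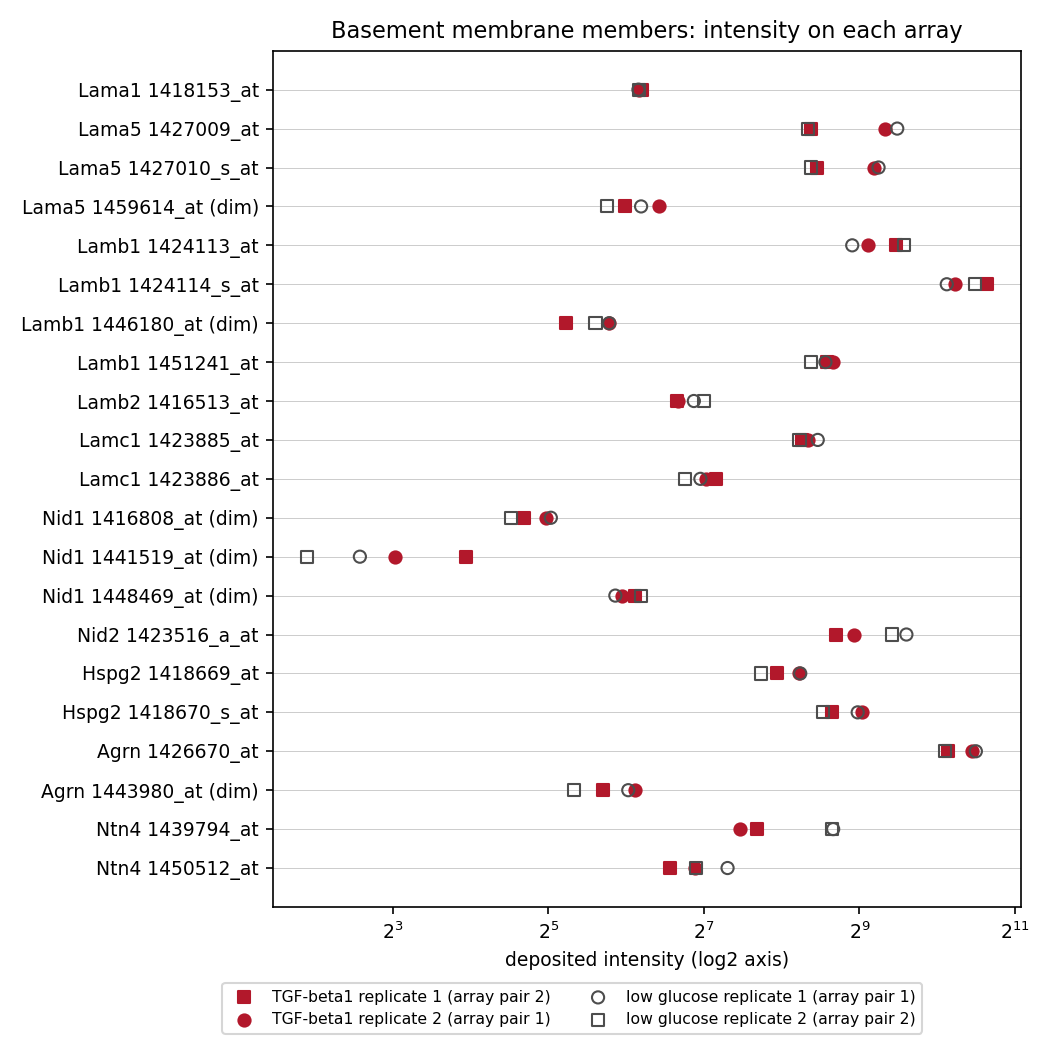
Deposited intensity of each of the 21 member probe sets (rows) on each of the 4 arrays, on a log2 axis. Filled red marks are TGF-beta1 arrays and open grey marks low glucose arrays, with circles for array pair 1 and squares for array pair 2. Ntn4 1439794_at and Nid2 separate the treatments, while Lama5 1427009_at separates the array pairs.

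Ntn4 encodes netrin-4, the laminin-related netrin of basement membranes. On its brighter probe set, 1439794_at, the intensity was 206 and 176 on the TGF-beta1 arrays (replicates 1 and 2), against 405 and 402 on the low glucose arrays. Both TGF-beta1 values were therefore below both low glucose values, and the low glucose arrays were nearly equal although they came from different array pairs. Ntn4 fell by 0.94 ± 0.071 on the log2 scale on this probe set (0.52-fold, n = 2 arrays per group), with -1.09 within array pair 1 and -0.78 within array pair 2. A larger absolute difference was seen in 0.222% of all kept probe sets. The limma fit without a block gave a 95% interval of -1.43 to -0.44, an unadjusted p of 0.00514 and an adjusted p of 1. The other Ntn4 probe set, 1450512_at, was dimmer, at 94.9 and 118 with TGF-beta1, against 158 and 119 in low glucose. The groups did not overlap there either, although TGF-beta1 replicate 2 and low glucose replicate 2 had almost the same deposited intensity. Ntn4 fell by 0.29 ± 0.066 on that probe set (-0.34 and -0.25 within array pairs 1 and 2), with an adjusted p of 0.000178 in the blocked limma fit. Without the pseudocount, the ratio of mean deposited intensities, TGF-beta1 over low glucose, was 0.47 on the brighter probe set and 0.77 on the dimmer one, so the probe sets differed in size as well as in brightness.

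Nid2 encodes nidogen-2, a linker of laminin and type IV collagen. Its single probe set, 1423516_a_at, was at 415 and 488 on the TGF-beta1 arrays, against 778 and 685 on the low glucose arrays. The groups did not overlap, in the deposited or the normalised values. Nid2 fell by 0.63 ± 0.081 (0.64-fold, n = 2 arrays per group), and the differences within array pairs 1 and 2 were -0.60 and -0.67. A larger absolute difference was seen in 0.803% of all kept probe sets. Without a block the limma interval was -1.06 to -0.21, the unadjusted p 0.0131 and the adjusted p 1. Nid1, the other nidogen, was dim. Its probe set 1448469_at was at 69.5 and 61.9 with TGF-beta1, against 58.1 and 72.9 in low glucose, and 1416808_at at 25.8 and 31.3, against 32.7 and 23.0. The third, 1441519_at, was at 15.4 and 8.17, against 5.96 and 3.73, values far under the pseudocount. All 3 lay below the filter, with log2 differences of -0.02, 0.01 and 0.20. Without the filter, the blocked limma fit gave them adjusted p-values of 0.926, 0.973 and 0.229.

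Lamb2 encodes the laminin beta 2 chain, which in the glomerulus marks the mature filtration barrier. Its probe set 1416513_at was dim, at 101 and 102 on the TGF-beta1 arrays, against 117 and 128 on the low glucose arrays. The deposited values did not overlap, but after normalisation they did, since TGF-beta1 replicate 1 stood at 7.31 and low glucose replicate 1 at 7.27. Lamb2 fell by 0.21 ± 0.067 (0.87-fold), with -0.16 and -0.25 within array pairs 1 and 2 and an adjusted p of 0.0179 in the blocked limma fit. It had the smallest difference of the 4 that were called. Without low glucose replicate 2 it was -0.06, without TGF-beta1 replicate 2 -0.11 and without low glucose replicate 1 -0.35, in a fit without a block, in which leaving out 1 array unbalances the array pairs.

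Promoter sequence is shown for Ntn4 and Lamb2, which fell, and for Lamb1, the other laminin beta chain, which was not called. Nid2 fell as well, but no promoter sequence was found for it, nor for Lama1 and Lamc1. Windows of 300 bases, 250 before and 50 after the annotated start, were read from RefSeq (GRCm38.p6), where 7 of the 10 members had 8 windows. Those printed run 5′ to 3′ and lie at chr10:93640799-93641098 (Ntn4, plus strand), chr9:108479612-108479911 (Lamb2, plus strand) and chr12:31265043-31265342 (Lamb1, plus strand). Capitals mark the letters CAGAC, the core of the SMAD-binding box, on either strand.
Ntn4: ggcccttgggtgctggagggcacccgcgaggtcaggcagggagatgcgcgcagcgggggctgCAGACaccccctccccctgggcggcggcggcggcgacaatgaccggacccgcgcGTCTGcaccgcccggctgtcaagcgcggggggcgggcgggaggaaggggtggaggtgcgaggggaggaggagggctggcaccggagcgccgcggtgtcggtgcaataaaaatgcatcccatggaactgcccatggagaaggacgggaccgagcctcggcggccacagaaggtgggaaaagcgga
Lamb2: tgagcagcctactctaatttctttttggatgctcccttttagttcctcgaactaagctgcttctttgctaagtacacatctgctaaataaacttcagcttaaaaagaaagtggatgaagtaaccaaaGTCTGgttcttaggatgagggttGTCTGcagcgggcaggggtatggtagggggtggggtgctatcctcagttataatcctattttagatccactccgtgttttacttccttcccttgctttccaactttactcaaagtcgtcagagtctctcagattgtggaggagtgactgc
Lamb1: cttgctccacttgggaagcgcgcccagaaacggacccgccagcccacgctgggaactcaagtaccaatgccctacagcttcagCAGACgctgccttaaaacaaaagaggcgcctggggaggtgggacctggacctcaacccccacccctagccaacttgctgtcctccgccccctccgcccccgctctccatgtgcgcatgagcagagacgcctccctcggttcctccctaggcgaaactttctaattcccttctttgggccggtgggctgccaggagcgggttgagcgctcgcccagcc
The Ntn4 window held CAGAC 2 times, starting 188 and 134 bases before the start, and the Lamb2 window 2 times, at 123 and 100 bases. The Lamb1 window held it 1 time, at 167 bases, as did the Lama5 window at 163, and the windows of Nid1, Hspg2 and Agrn did not hold these letters. Over all 32851 windows of this length 49.6% held CAGAC, against 4 of the 8 member windows. The GC box, GGGCGG on either strand, was in 7 of the 8 member windows and in 35.7% of all windows, and the Lamb2 window was the one without it. No CAGAC match overlapped a GGGCGG match in these windows, while the Ntn4 window held 2 GGGCGG matches that overlapped each other, starting 105 and 101 bases before the start. The G and C content was 72.0% for Ntn4, 44.0% for Lamb2 and 63.7% for Lamb1, against a median of 52.7% over all windows. No member window held TATAAA, which 13.6% of all windows held. These matches describe letters and were not tested for binding.

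The other laminin chains showed little difference between the treatments. Over all 9 kept probe sets of the 5 laminin chains the differences ran between -0.21, that of Lamb2, and 0.15. Lamb1, the beta chain of embryonic and mesangial laminins, was bright on 1424114_s_at, at 1593 and 1197 with TGF-beta1, against 1115 and 1433 in low glucose, and the groups interleaved. Its difference there was 0.12 ± 0.078 (0.10 and 0.14 within array pairs 1 and 2). On 1451241_at Lamb1 was at 385 and 404, against 378 and 332, the 1 kept member probe set whose normalised values on both TGF-beta1 arrays lay above those on both low glucose arrays. The difference was 0.15 ± 0.076 and did not pass, with an adjusted p of 0.198 in the blocked limma fit and an interval of 0.00 to 0.30. The remaining kept Lamb1 probe set, 1424113_at, had opposite signs within the pairs, 0.18 and -0.09.

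Lamc1 encodes the gamma 1 chain, shared by most laminins and the docking chain for nidogens and netrin-4. On 1423885_at it was at 307 and 325 with TGF-beta1, against 353 and 300 in low glucose, a difference of -0.04 ± 0.074. On 1423886_at it was at 142 and 130, against 124 and 108, which overlapped only after normalisation, a difference of 0.14 ± 0.065 with an adjusted p of 0.142 in the blocked limma fit. The probe sets thus pointed to opposite sides of 0, and their intervals with the block, -0.18 to 0.11 and 0.01 to 0.27, overlapped. Lama1, the alpha chain of the early embryonic laminin, was close to equal on all 4 arrays, at 73.4 and 71.5 with TGF-beta1, against 71.4 and 71.5 in low glucose. Its difference was -0.01 ± 0.079, and the 95% limma interval without a block was -0.36 to 0.33.

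Lama5, the alpha chain of the mature glomerular basement membrane, differed between the array pairs and not measurably between the treatments. On 1427009_at it was at 332 and 645 on TGF-beta1 replicates 1 and 2, against 717 and 324 on low glucose replicates 1 and 2. The arrays of pair 1 were both high and those of pair 2 both low, so that each treatment held 1 high and 1 low array. On 1427010_s_at the same arrays were high, at 351 and 583 with TGF-beta1, against 607 and 332 in low glucose. Array pair 1 minus array pair 2 was 0.91 and 0.69 on these probe sets, and 1.92% and 6.10% of all kept probe sets had a larger absolute difference between the pairs. The difference between treatments was -0.05 ± 0.080 and 0.00 ± 0.079, and the blocked intervals reached at most 0.21 below and 0.16 above 0. Without a block the intervals were -1.22 to 1.12 and -0.93 to 0.93. Leaving out TGF-beta1 replicate 1 or low glucose replicate 1 moved 1427009_at to 0.36 or 0.44, and leaving out TGF-beta1 replicate 2 or low glucose replicate 2 moved it to -0.46 or -0.55.

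**Figure D2:**
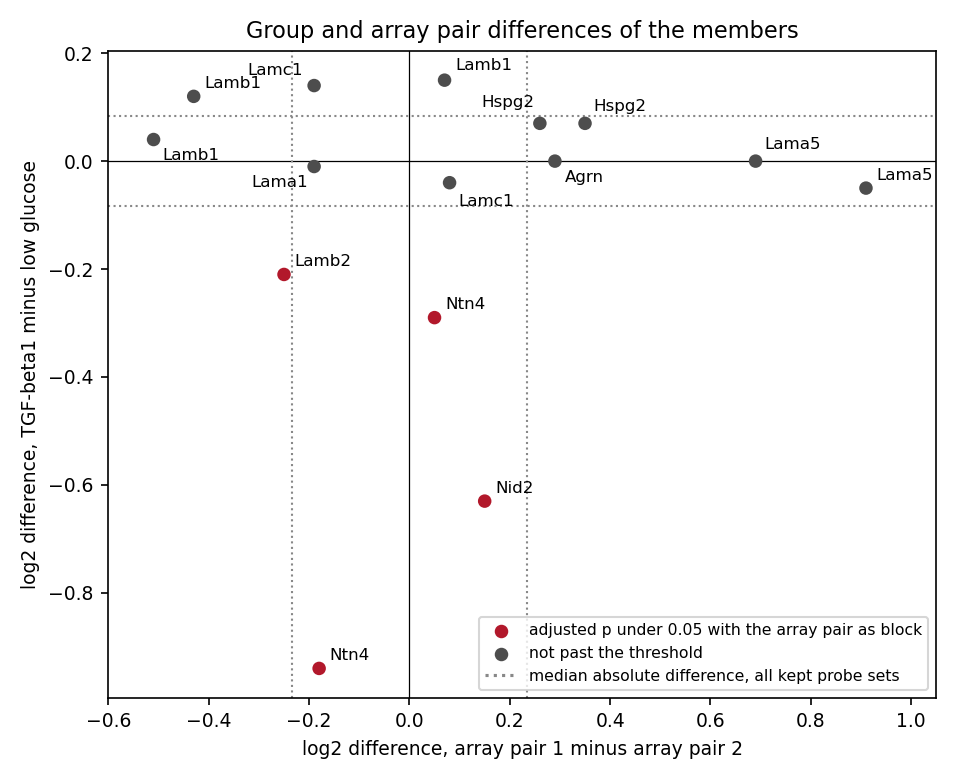
Each point is a kept member probe set, with the log2 difference of array pair 1 minus array pair 2 on the horizontal axis and that of TGF-beta1 minus low glucose on the vertical axis. Dotted lines mark the median absolute difference over all kept probe sets, 0.235 between pairs and 0.083 between treatments. Lama5 lies far out along the pair axis at 0.91 and 0.69, and Ntn4 and Nid2 along the treatment axis at -0.94 and -0.63.

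In 11 of the 15 kept member probe sets the absolute difference between array pairs was larger than that between treatments, a share close to the 77.1% of all kept probe sets. Lamb1 went the other way from Lama5, with -0.51 and -0.43 for array pair 1 minus array pair 2 on 1424113_at and 1424114_s_at. Whether RNA quality had a part in the pair differences was not tested.

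The heparan sulfate proteoglycans among the members did not differ measurably. Hspg2 encodes perlecan, and on 1418670_s_at it was at 402 and 526 with TGF-beta1, against 504 and 371 in low glucose. Its other probe set, 1418669_at, was at 245 and 298, against 302 and 213. In both, the arrays of pair 1 were the higher ones, and the treatment differences were 0.07 ± 0.079 and 0.07 ± 0.070. Agrn encodes agrin, and on 1426670_at it was at 1128 and 1397 with TGF-beta1, against 1445 and 1099 in low glucose. Its difference was 0.00 ± 0.079, and with the block the 95% interval was -0.16 to 0.15. Without a block the limma intervals were wider, at -0.49 to 0.48 for this Agrn probe set. For Hspg2 they were -0.50 to 0.65 on 1418670_s_at and -0.45 to 0.59 on 1418669_at. The dim probe set 1443980_at of Agrn, below the filter, stood at 0.10. Over the 6 member probe sets below the filter, intensities ran between 3.73 and 86.1 and differences between -0.12 and 0.20.

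**Figure D3:**
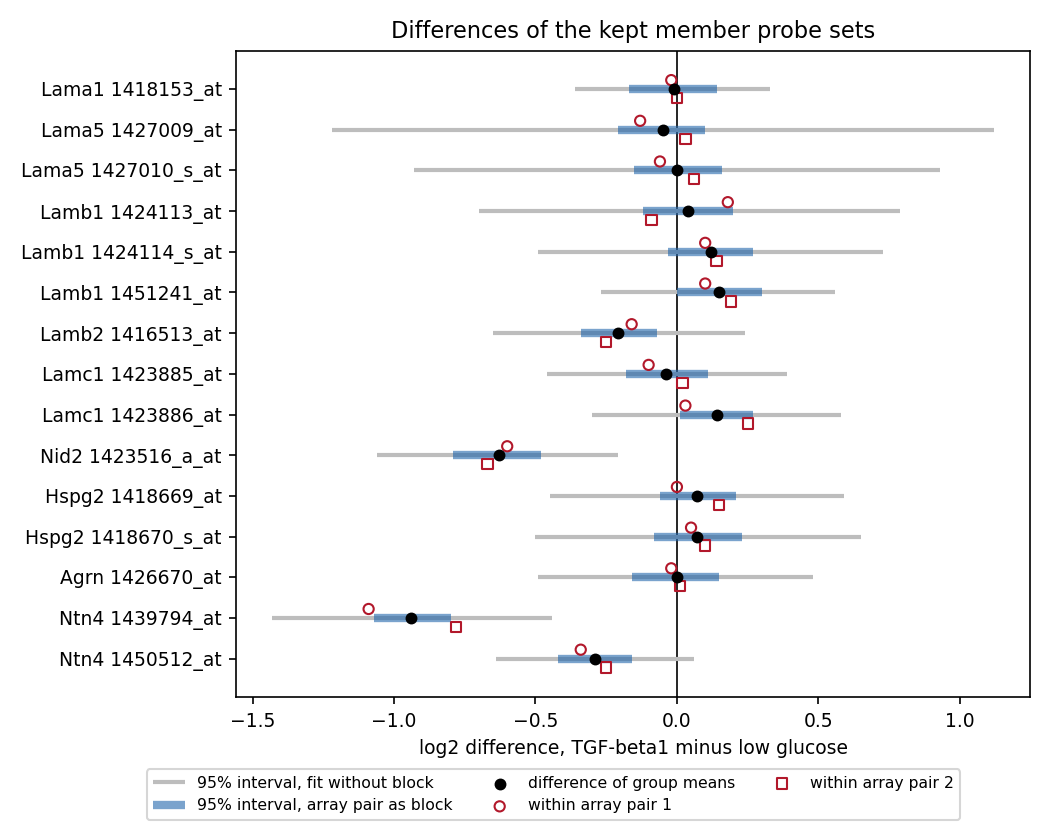
Log2 difference, TGF-beta1 minus low glucose, of the 15 kept member probe sets (rows). Black points are differences of group means (n = 2 arrays per group), open red circles and squares the differences within array pairs 1 and 2, and bars the 95% intervals of the limma fits without a block (grey) and with it (blue). The grey interval excludes 0 for Nid2 and for 1 Ntn4 probe set, and the blue one also for Lamb2, the other Ntn4 probe set and Lamc1 1423886_at, the last without passing the adjusted threshold.

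Related genes were read from lists of the same fits, again with calls of the blocked fit, and no gene of these lists was called without a block. The counts below stand beside 6.94% of all kept probe sets that rose and 8.92% that fell. Among the other laminin and netrin chains, 1 of 6 kept probe sets rose and 1 fell (median 0.04). The one that rose was Lamb3, the beta chain of the laminin of epithelial anchoring, at 259 and 268 with TGF-beta1, against 119 and 109 in low glucose. The groups did not overlap, and Lamb3 rose by 0.93 ± 0.064 (0.99 and 0.88 within array pairs 1 and 2). Ntn1, the guidance netrin-1, was at 204 and 255, against 349 and 280, and fell by 0.38 ± 0.071. The alpha chains Lama2, Lama3 and Lama4 had 5 probe sets, all below the filter, with intensities between 23.1 and 73.4.

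Of the 11 kept probe sets of type IV collagen chains, 4 rose and 2 fell (median 0.04), against 6.94% and 8.92% of all kept. Col4a4 rose by 0.58 ± 0.078 on its probe set of largest difference, 1445328_at, and Col4a3 by 0.41 ± 0.064, while Col4a6 fell by 0.31 ± 0.080 and Col4a5 by 0.24 ± 0.082, the last with groups that overlapped. The other kept probe sets of Col4a3 (0.16), Col4a6 (-0.20) and Col4a5 (-0.14) did not pass. Of 24 kept probe sets of other basement membrane components, 1 rose, 6 fell and 17 did not pass (median -0.03). The same shares of all kept, 6.94% and 8.92%, apply. All 5 kept probe sets of Npnt, nephronectin, a basement membrane ligand of integrin alpha 8 beta 1, fell, by between 0.60 and 0.26. On 1452106_at Npnt was at 389 and 530 with TGF-beta1, against 796 and 527 in low glucose, so that 2 arrays of different treatment were level. Its probe sets disagreed between the array pairs, with -0.88 on 1452107_s_at and 0.85 on 1426561_a_at for array pair 1 minus array pair 2. Tinagl1 fell by 0.24 ± 0.074 with groups that overlapped, and Pxdn, peroxidasin, which cross-links type IV collagen, rose by 0.44 ± 0.082, with 720 and 942 against 660 and 535.

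Of 37 kept probe sets of receptors for these proteins, 4 rose, 5 fell and 28 did not pass (median 0.05). Over all kept probe sets, 6.94% rose and 8.92% fell. Dag1, dystroglycan, a receptor for laminins, perlecan and agrin, accounted for 4 of the 5 that fell. On its brightest probe set, 1426778_at, Dag1 was at 1749 and 1912 with TGF-beta1, against 2353 and 2109 in low glucose, and fell by 0.29 ± 0.072 (-0.29 and -0.30 within array pairs 1 and 2). Its other called probe sets fell by between 0.29 and 0.23, and on 2 of those 3 the groups overlapped. Itga1 fell by 0.26 ± 0.067, Itgb1, the integrin beta 1 chain, rose by 0.26 ± 0.080 on its brightest probe set, 1452545_a_at, and Unc5b, a netrin receptor, rose by 0.40 ± 0.065. Sdc3 rose by 0.20 ± 0.066. The groups overlapped on these probe sets of Itga1, Itgb1, Unc5b and Sdc3, with Unc5b at 145 and 318 with TGF-beta1, against 221 and 104 in low glucose. The other kept probe set of Unc5b had a difference of -0.02 and did not pass. The other kept probe sets of Sdc3, at 0.12 and -0.01, did not pass, nor did Itgb1 1426918_at, at 0.18. On the dimmer probe set 1427771_x_at, Itgb1 rose by 0.22 ± 0.064 with groups that did not overlap. It was at 157 and 150 with TGF-beta1 there, against 124 and 122 in low glucose. Among enzymes that build and trim heparan sulfate chains, 2 of 28 kept probe sets rose, 3 fell and 23 did not pass (median -0.01). These shares were near the 6.94% and 8.92% of all kept probe sets. Hs3st1, a 3-O-sulfotransferase, rose by 0.51 ± 0.067 and B4galt7, which builds the linker to the core protein, by 0.47 ± 0.081. Hs6st1, a 6-O-sulfotransferase, fell by 0.27 ± 0.079, Extl2 by 0.23 ± 0.082 and Xylt2 by 0.21 ± 0.064. Among these 5 called probe sets only that of Extl2 had groups that overlapped on the normalised scale, while the groups of Xylt2 overlapped in the deposited values. The other kept probe sets of B4galt7 (0.17) and Extl2 (-0.17) did not pass.

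**Figure D4:**
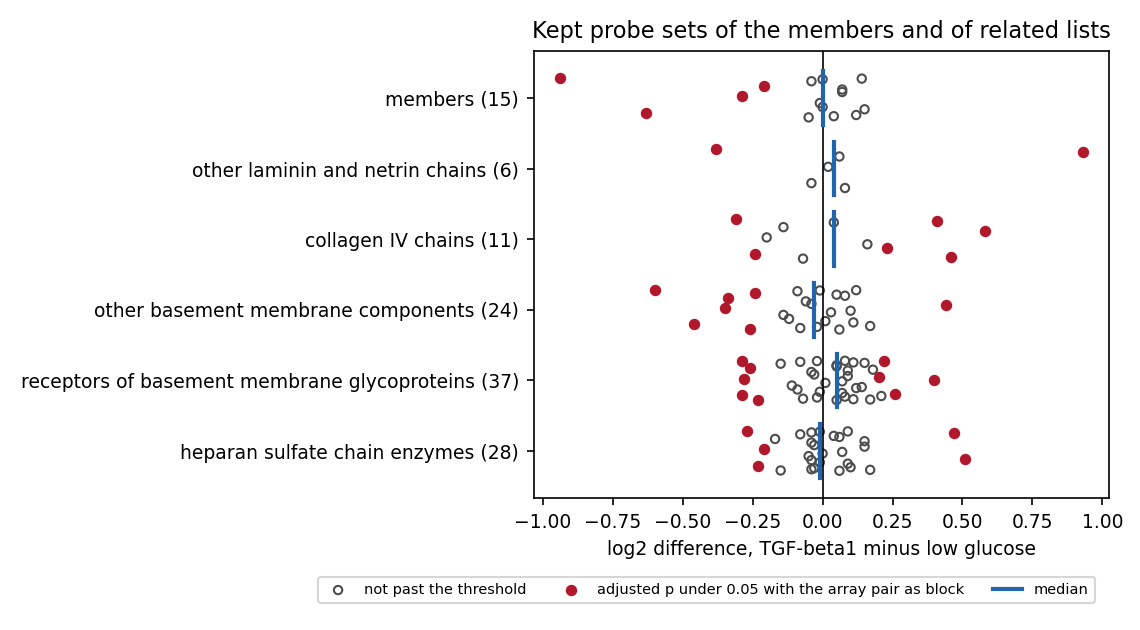
Log2 difference, TGF-beta1 minus low glucose, of every kept probe set of the 10 members and of the related lists, with the number of probe sets in brackets. Red points passed the threshold of 0.05 once limma took array pairs as blocks, open points did not, and blue lines are list medians, which lay between -0.03 and 0.05. The point farthest to the left is Ntn4 at -0.94 and that farthest to the right Lamb3 at 0.93.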

How the data were processed

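The authors deposited 1 linear intensity per probe set and array; their probe summary and scaling are not given in the sources used. Groups came from the array titles, and no 2 arrays shared more than 1 identical value. Probe sets were named from the platform annotation, after 64 controls were dropped, and among 45037 probe sets 34945 carried 1 symbol, 932 several and 9160 none here. From the intensities, log2(intensity + 46.88) was computed, with the 25th percentile of all intensities as pseudocount, and quantile normalised. The dimmest 40% by mean were dropped, leaving 27022. These were tested two-sided in limma 3.58.1 under R 4.3.3 (lmFit, then eBayes with trend), and p-values were adjusted over all of them by Benjamini-Hochberg, with calls made under 0.05. Plots used matplotlib 3.10.9. The chosen fit had no block, and a second one took the array pair from the spike-ins as a block. Both titles of array pair 1 carry the same repeat tag and those of array pair 2 do not (1 has no tag), and what the tags mean is not given, so the pairing was taken from the spike-ins. The arrays of a pair were more alike (r = 0.990) than those of a treatment (0.956). The members, lists and tests were chosen with earlier results of these data known. Named were all members and, of each related list, up to 5 genes with the largest absolute difference among those past the threshold in the blocked fit, since fewer than 2 passed without it. Pdgfrb, Itga8, Aqp1, Krt18, the other cell type markers given with values and the chains Lama2, Lama3 and Lama4 were named after their values were seen.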

Additional observations from a re-analysis of the deposited data

How the results depend on the processing

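Without a block, 0 probe sets passed in all of the settings that kept the 4 arrays (other pseudocounts, a floor, the authors' scaling, median centring, other filters, 1 probe set per gene, no _s_at or _x_at probe sets, no intensity trend), with 337 to 515 at an unadjusted p under 0.05 except 270 with 1 probe set per gene. Leaving out 1 array gave 0 to 17 probe sets and 0 members in the limma fit without a block. With the array pair as a replicate block, 4287 probe sets and 4 of the members' passed, 4337 and 4 with the authors' scaling, 4405 and 4 with median centring, 3909 and 4 without a filter and 2502 and 3 with 1 probe set per gene. With the prior of the fit without a block, 0 passed, and the adjusted p was 0.158 for Nid2 and for Ntn4 1439794_at, 0.253 for Ntn4 1450512_at and 0.314 for Lamb2. The settings that add a scaling, filter or probe set choice to the block were chosen after seeing the data.

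The probe sets of Nid2, Ntn4 and Lamb2 kept their direction in all alternatives run. Ntn4 1439794_at lay between -1.10 with a floor and -0.80 with a pseudocount of 100, and Nid2 between -0.73 and -0.55 when 1 array was left out, which also gave -1.08 to -0.78 for that Ntn4 probe set. The other settings with 4 arrays and no block gave 139 values over all member probe sets, 38 of them of Nid2, Ntn4 and Lamb2. Of the 139, 2 changed sign: Lama1 was 0.01 with the authors' scaling and Lama5 1427010_s_at -0.02 with median centring, both the same with the block. Leaving out 1 array gave 60 values over all member probe sets, including 16 of Nid2, Ntn4 and Lamb2, and changed the sign in 18 of the 60. Across those fits Lama1 ran between -0.11 and 0.09, Hspg2 between -0.09 and 0.25 (1418669_at) and between -0.11 and 0.27 (1418670_s_at), Agrn between -0.16 and 0.15, and Lama5 between -0.55 and 0.44 and between -0.37 and 0.38. Lamb1 ran between -0.27 and 0.37 (1424113_at) and between -0.10 and 0.34 (1424114_s_at), and Lamc1 between -0.11 and 0.03 and, on 1423886_at, between -0.01 and 0.30. With 2 arrays per treatment, the number of arrays limits the precision.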
